A study of Mus musculus with 14 samples.

Results

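Open chromatin was described at 7 genes that encode zinc finger repressors of blood lineage choice: Bcl11a, Bcl11b, Bcl6, Zbtb7a, Zbtb7b, Zbtb16 and Zbtb20. A peak was taken for a member when the merged peak list named that gene as the one with the nearest transcription start site (TSS), which need not be the gene that the open region regulates. Of the 92842 peaks in the list, 92 carried the name of a member, and of the 19105 genes named there 6 were members. Zbtb7b was not named for any peak, and its locus is described by position.

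The list came from ATAC-seq, an assay of accessible DNA by insertion of sequencing adapters with a transposase, on 14 libraries of cells sorted by antibody staining. Wild-type C57BL/6 mice aged 8 to 12 weeks gave 7 cell types with 2 libraries each. The labels name no treatment or modified allele, and whether paired libraries came from separate animals is not stated in them. Bone marrow gave MPP (multipotent), CMP (common myeloid), GMP (granulocyte and macrophage), MEP (megakaryocyte and erythroid), CLP (common lymphoid) and ProB cells, all of them progenitors, and thymus gave the ProT cells. The list merges these cell types and does not say which of them had a given peak. The values below are positions and counts of peaks, with no replicates, no levels and no comparison between cell types. Neither the depth of the libraries nor the identity of the sorted cells can be read from the list.

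As background, Bcl11a and Bcl11b are related C2H2 zinc finger proteins that bring the NuRD deacetylase and remodelling complex to DNA. Bcl6 and the Zbtb proteins pair zinc fingers with a BTB/POZ domain, through which several of them bind the corepressors SMRT and NCoR. Bcl11a is needed for lymphoid development and silences embryonic globin genes in adult red cells. Bcl11b is required for commitment to the T lineage. Bcl6 directs germinal centre B cells and follicular helper T cells. Zbtb7a, also called LRF, acts in erythroid cells and in the choice between B and T fates, Zbtb7b (ThPOK) in the CD4 choice of thymocytes, Zbtb16 (PLZF) in natural killer T cells, and Zbtb20 in plasma cells and liver.

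The promoters of all 7 genes carried a peak. By gene name, a TSS with a peak at most 1 kb away was found at 6 of the 7 members and at 68.0% of all genes named in the list. Zbtb7b, the exception, had a peak that the list annotates as its promoter but names for the noncoding gene Gm15417. With that annotation as the criterion, all 7 members had a promoter peak, against 44.1% of coding genes. The Zbtb7a peak was centred 15 bp downstream of the TSS. Those of Zbtb20, Zbtb16 and Bcl6 were centred 113, 198 and 202 bp upstream of the TSS in the list, and that of Bcl11b 614 bp upstream. Bcl11a had a peak at each of its 2 starts, which lie 2.64 kb apart. The first was centred 280 bp upstream of the outer start, and the second 670 bp upstream of the inner start, with another 548 bp downstream of it in intron 1.

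The deposited list gives no sequence, so the promoter windows of RefSeq (GRCm38.p6, the NCBI name of the build that UCSC calls mm10) were set against the peaks. A window holds 250 bases before a start and 50 from it on. The table held 8 windows of 6 members, and 2 of the windows overlapped a peak, against 53.7% of the windows of coding genes. It held no window for Zbtb16 or for the outer starts of Bcl11a and Zbtb20, so the promoter peaks there do not enter this count. A peak covered 284 bp of the window of Zbtb7a and 261 bp of the first window of Bcl6. The other windows lay close to a peak but outside it: 10 bp from it at the first start of Zbtb7b, 115 bp at Bcl11b, 171 bp at Bcl11a, 294 bp at the second start of Zbtb7b and 831 bp at the second start of Bcl6. The window of Zbtb20 was the exception, at 29.0 kb from the nearest peak. It belongs to the inner start of Zbtb20, 340 kb downstream of the outer start, where the promoter peak lay. The bases upstream of 7 of these starts are shown because they hold the motif matches described next, 6 of them on or beside a peak and that of Zbtb20 away from one. They are in lower case with the matches in capitals. A match on the strand opposite to the gene appears as its reverse complement. The first RefSeq start of Bcl6 lies upstream of the TSS that the list uses, and inside the promoter peak.
Bcl11a, chr11:24080445-24080694, plus strand: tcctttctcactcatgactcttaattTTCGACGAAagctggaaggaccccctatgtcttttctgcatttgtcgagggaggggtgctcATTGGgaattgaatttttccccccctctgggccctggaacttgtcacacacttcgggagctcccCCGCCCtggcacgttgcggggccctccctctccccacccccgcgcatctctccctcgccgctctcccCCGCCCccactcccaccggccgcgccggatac
Bcl11b, chr12:108003415-108003664, minus strand: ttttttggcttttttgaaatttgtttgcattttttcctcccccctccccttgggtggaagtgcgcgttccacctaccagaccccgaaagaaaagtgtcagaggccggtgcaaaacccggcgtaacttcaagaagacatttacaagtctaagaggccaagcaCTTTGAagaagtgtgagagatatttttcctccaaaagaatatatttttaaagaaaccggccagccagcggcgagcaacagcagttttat
Bcl6, first start, chr16:23988853-23989102, minus strand: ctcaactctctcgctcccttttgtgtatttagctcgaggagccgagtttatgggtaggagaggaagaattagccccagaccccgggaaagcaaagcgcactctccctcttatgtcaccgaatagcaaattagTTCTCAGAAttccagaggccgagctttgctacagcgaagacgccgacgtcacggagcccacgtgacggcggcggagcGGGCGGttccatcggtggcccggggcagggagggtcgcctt
Bcl6, second start, chr16:23981284-23981533, minus strand: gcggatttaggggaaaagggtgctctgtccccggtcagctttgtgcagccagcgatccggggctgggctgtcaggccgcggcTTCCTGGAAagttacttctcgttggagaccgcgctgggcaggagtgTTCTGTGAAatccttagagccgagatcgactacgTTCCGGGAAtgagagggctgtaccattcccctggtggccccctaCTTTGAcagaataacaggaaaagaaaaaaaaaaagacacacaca
Zbtb7a, chr10:81136021-81136270, plus strand: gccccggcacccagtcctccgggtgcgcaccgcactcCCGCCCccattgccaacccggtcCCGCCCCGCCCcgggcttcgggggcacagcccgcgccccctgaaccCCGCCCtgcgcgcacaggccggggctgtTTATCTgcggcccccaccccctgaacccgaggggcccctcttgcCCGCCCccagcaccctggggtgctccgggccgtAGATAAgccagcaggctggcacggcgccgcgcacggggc
Zbtb7b, chr3:89393379-89393628, minus strand: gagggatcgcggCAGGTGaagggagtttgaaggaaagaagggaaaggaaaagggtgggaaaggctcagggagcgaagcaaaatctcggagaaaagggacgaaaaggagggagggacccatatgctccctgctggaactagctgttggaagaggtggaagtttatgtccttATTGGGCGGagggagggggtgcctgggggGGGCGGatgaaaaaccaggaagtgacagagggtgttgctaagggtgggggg
Zbtb20, inner start, chr16:43247034-43247283, plus strand: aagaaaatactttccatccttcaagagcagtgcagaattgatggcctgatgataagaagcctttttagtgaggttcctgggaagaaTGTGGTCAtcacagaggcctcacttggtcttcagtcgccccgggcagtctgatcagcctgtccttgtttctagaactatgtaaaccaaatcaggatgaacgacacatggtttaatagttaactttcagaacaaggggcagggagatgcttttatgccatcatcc

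In the sequences above, the last 211 bases of the first Bcl6 stretch and the last 234 of Zbtb7a lay within a peak. Exact matches to 18 motifs were searched on both strands of the whole windows. They were the GATA factor motif (AGATAA), PU.1 (GAGGAAGT), ETS (CCGGAAGT), RUNX (TGTGGT), E-box A (CAGCTG), E-box B (CAGGTG), IRF, EBF, AP-1 (TGANTCA), CRE (TGACGTCA), SP/KLF (GGGCGG), NRF1, NF-Y (CCAAT), STAT (TTCNNNGAA), TCF/LEF (CTTTGA), BCL11A (TGACCA), BCL6 (TTCCTAGAA) and the TATA box (TATAAA). SP/KLF letters were found in 5 of the 8 member windows (Bcl11a, Bcl6, Zbtb7a and both of Zbtb7b), against 35.7% of all 32851 windows. STAT letters were found in 4 of the 8 (Bcl11a, both of Bcl6, and Zbtb20), against 8.30% of all windows, and NF-Y letters in 3 of the 8 (Bcl11a, Zbtb7b and Zbtb20), against 37.4%. The STAT and NF-Y matches of Zbtb20 lay downstream of the start, past the printed stretch.

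Zbtb7a had the only GATA letters among the members, and it had 2 matches, at -116 and -39 counted from the TSS at 0. Both lay in the part of the window that the peak covered. A match occurred in 11.2% of all windows, and 2 or more in 1.14%. The same window held 6 SP/KLF matches, of which 2 share a base, and 6 or more were found in 1.35% of windows. The window of the second start of Bcl6 held 3 STAT matches, at -168, -122 and -88, and as many were found in 0.0335% of windows. No peak reached that window, so the 3 matches lay outside the open region in the list. The window was singled out after its matches had been seen.

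RUNX letters were found at Zbtb20 (16.8% of all windows) and at the second start of Zbtb7b. At Zbtb20 they overlap the BCL11A letters on the other strand, so these are not separate matches, while at that start of Zbtb7b, which is not printed, they lay apart. BCL11A letters occurred in 13.6% of all windows. At the first start of Zbtb7b the NF-Y letters overlap an SP/KLF match on the other strand, and the E-box B match there (20.2% of windows) stood alone. TCF/LEF letters were found at Bcl11b and at the second start of Bcl6 (16.0%), and TATA box letters at Bcl11b (13.6%), on the strand opposite to the gene and across the start, so not whole in the printed stretch. The other 9 motifs had no match in the member windows. Their shares of all windows were 16.3% for E-box A, 7.81% for AP-1, 3.89% for ETS, 3.44% for IRF, 3.20% for PU.1, 1.79% for CRE, 0.971% for NRF1, 0.904% for EBF and 0.411% for BCL6.

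**Figure D1:**
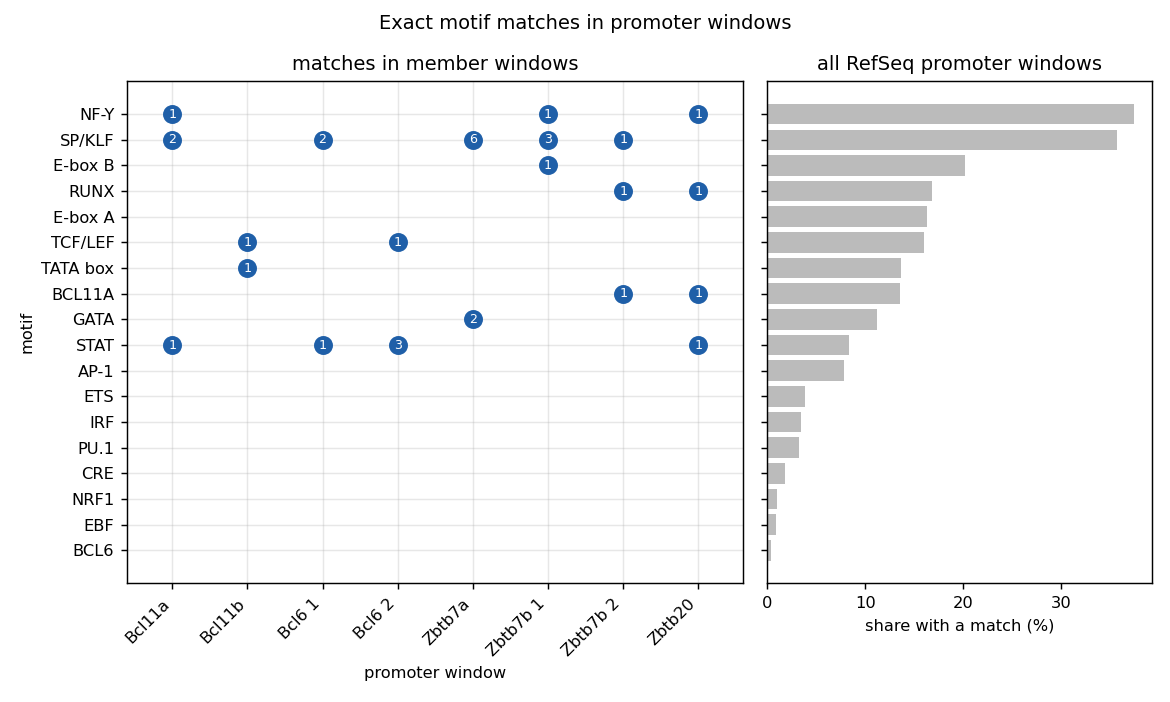
Matches to 18 motifs in the promoter windows of the members (left, the number in a circle is the count of matches, 1 and 2 after a name are the starts of that gene in order) and the share of all RefSeq windows with a match in percent (right). The 2 GATA matches of Zbtb7a and the 3 STAT matches at the second start of Bcl6 are repeated matches of motifs found in 11.2% and 8.30% of all windows.

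The base composition of the windows also differed among the members. Zbtb7a was 77.7% G and C, and 2.08% of all windows were as rich. The first window of Bcl6 had 62.7% and that of Bcl11a 63%, while Bcl11b had 43% and Zbtb20 43.3%, below the median of 52.7% over all windows. The first and second windows of Zbtb7b had 59.7% and 63.3%, and the second of Bcl6 51.7%. CpG pairs numbered 31 each in Zbtb7a and the first Bcl6 window, 23 in Bcl11a, 9 in Bcl11b and 3 in Zbtb20, against a median of 7. The second Bcl6 window had 14, and the first and second windows of Zbtb7b had 8 and 7. The 2 windows that a peak overlapped were those with the most CpG pairs.

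The number of peaks differed widely among the members. Bcl11a had 40 peaks, and only 0.167% of the genes in the list had as many. Bcl6 had 22 (1.97% of genes had as many), Zbtb16 10 (12.6%), Bcl11b 8 (18.4%), Zbtb20 7 (22.3%) and Zbtb7a 5 (34.9%). The median over the 7 members was 8, against 3 over all genes with a peak. In all, 3 of the 7 members had at least 10 peaks, against 12.6% of genes. At least 5 peaks were found at 6 members, against 34.9% of genes, and at least 20 at 2 members, against 2.63%. Bcl11a alone held 40 of the 92 peaks, so shares pooled over the members are largely those of Bcl11a and Bcl6.

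**Figure D2:**
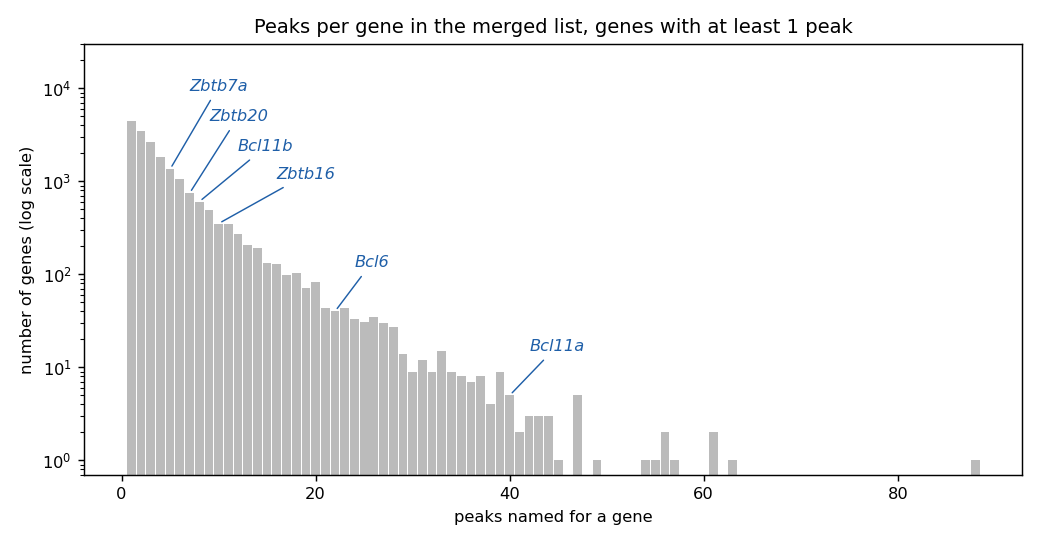
Number of genes (log scale) by the number of peaks named for them, with 6 members marked at their own number. Bcl11a at 40 and Bcl6 at 22 lie in the right tail, and Zbtb7a at 5 and Zbtb20 at 7 lie in the bulk of the genes. Zbtb7b, with no peak of its name, is not drawn.

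Bcl11a lies on the plus strand of chromosome 11 (24076564 to 24173558 in RefSeq). Its 40 peaks spread over 289 kb, with a median gap of 5.42 kb between neighbours, against 8.76 kb between all neighbouring peaks of the list. In all, 7 lay more than 1 kb upstream and 30 more than 1 kb downstream of a start. Of the 16 intron peaks, 13 lay in intron 2, 2 in intron 1 and 1 in intron 3. A stretch of intron 2 that begins 51.8 kb downstream of the outer start held 7 peaks within 15.2 kb (24129653 to 24144860), the last centred 66.6 kb from that start. The stretch was singled out after its peaks had been seen. As background, an erythroid enhancer of Bcl11a is known in this intron in mouse and human. The list does not say in which cell types the 7 peaks were open. One of them (24139410 to 24139908) lay in an ORR1E element, an LTR retrotransposon.

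Beyond the 3' end of Bcl11a the peaks went on. One peak lay at the transcription termination site (24174132 to 24174630), and 14 peaks named for Bcl11a lay more than 100 kb from its start, all of them downstream. Of these, 10 formed a run of 41.8 kb (24217781 to 24260114) in which neighbouring centres were at most 12.5 kb apart. Inside and around the gene, further runs of 12 peaks (24065287 to 24112192) and 11 peaks (24129653 to 24185419) spanned 46.4 and 55.3 kb. The outermost peaks lay upstream at 23987792 to 23988290 and 197 kb downstream (24277005 to 24277503). On both sides the name changed without a break in the peaks. The next peak upstream lay only 3.68 kb away and was named for Papolg, a poly(A) polymerase gene, and the next downstream lay 5.16 kb away and was named for the noncoding gene 4933430M04Rik. In all, 10 peaks with that name lay 204 to 294 kb downstream of the outer start of Bcl11a.

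Bcl11b showed far fewer peaks over a gene of nearly the same length, 93.7 kb against 97.0 kb for Bcl11a. It lies on the minus strand of chromosome 12 (107910403 to 108004145). Its body held 4 peaks, or 4.27 per 100 kb, against 18 peaks, or 18.6 per 100 kb, for Bcl11a. The promoter peak (108003779 to 108004277) and a peak 4.47 kb downstream in intron 1 (107998692 to 107999190) were followed by 70.7 kb without a peak. The next 2 peaks, at 75.1 and 82.0 kb, lay toward the 3' end, in the only intron of a transcript that begins at the same start. Upstream, peaks were centred at 38.5, 45.5 and 85.0 kb, the last of them (108088193 to 108088691) in a run with 2 peaks named for Setd3, and the outermost downstream peak at 119 kb (107884468 to 107884966).

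Downstream of Bcl11b lies a gene desert, and no further peak with its name was found there. As background, a distal enhancer of Bcl11b that acts in T cell precursors is known deep in this desert in mouse. The list held 4 peaks at 820 to 862 kb from the start of Bcl11b (107140998 to 107183721), all named for the noncoding gene 4933406K04Rik, whose TSS was 425 to 467 kb away. These 4 peaks were looked up after the list had been read and are not counted with the members. They were not the only ones on that side. Peaks named for the noncoding gene 4930465M20Rik were centred 358 and 641 kb from the start of Bcl11b, and others named for 4933406K04Rik at 992 and 1345 kb.

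Bcl6 lies on the minus strand of chromosome 16 (23965050 to 23988866) and had most of its peaks upstream of the gene. Of 22 peaks, 18 lay more than 1 kb upstream and 3 more than 1 kb downstream of the TSS. Intergenic sequence held 19 of them, intron 1 held 2 (4.18 and 6.00 kb downstream) and the promoter 1 (23988565 to 23989063). A run of 5 peaks within 10.8 kb spanned the promoter, and runs of 4 (24062048 to 24077000) and 3 peaks (24090085 to 24103440) lay upstream. Farther upstream, 10 peaks were centred more than 100 kb away, out to 198 kb (24185964 to 24186462). The outermost downstream peak was centred 25.9 kb from the TSS (23962434 to 23962932).

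The upstream peaks of Bcl6 ran on into the peaks named for Lpp, which encodes a LIM domain protein. The next peak, named for Lpp, lay 7.41 kb beyond the last Bcl6 peak, and a run of 13 peaks over 57.7 kb (24165396 to 24223580) held 4 of Bcl6 and 9 of Lpp. The last Bcl6 peak was 198 kb from the TSS of Bcl6, and the first Lpp peak 199.7 kb from that of Lpp, so the name changed about midway between the TSSs. As background, a locus control region of BCL6 that acts in germinal centre B cells lies far upstream of the gene in human. Among the Bcl6 peaks, 3 lay in repeats, an L2, an MLT2F and a Charlie1b element.

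Zbtb16, on the minus strand of chromosome 9 (48651797 to 48836225), had 9 of its peaks inside the gene. Of the 10 peaks named for it, 6 lay in intron 2, 2 in intron 3, 1 at the promoter (48835894 to 48836392) and 1 in intergenic sequence 24.7 kb upstream (48860403 to 48860901). A run of 4 peaks in intron 2 was centred 14.3 to 40.6 kb downstream of the TSS. The outermost downstream peak lay at 112 kb (48723674 to 48724172). A further 5 peaks in introns 4 and 5 of Zbtb16 were named for Nnmt, a methyltransferase gene beyond its 3' end, since their distance to the TSS of Nnmt was smaller. Upstream, the next peak after the Zbtb16 peaks was 125 kb away, at Usp28.

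Zbtb20 is the longest of the 7 genes, at 759 kb on the plus strand of chromosome 16 (42875689 to 43634392). The 7 peaks named for it were a promoter peak at the outer start (42907283 to 42907781), a peak 10.3 kb upstream of that start (42897108 to 42897606), 3 in intron 2 at 29.5 to 78.7 kb upstream of the inner start, the farthest at 43168372 to 43168870, and 2 at 53.3 and 56.3 kb downstream of it, the last at 43303323 to 43303821. The outer start is the outermost one that the list uses. The RefSeq body begins 32.0 kb upstream of it, so all 7 peaks lay inside the body. A peak named for 4932412D23Rik (42875358 to 42875856) was centred just outside the beginning of the body. The 2 Zbtb20 peaks at and upstream of the outer start formed a run with 3 peaks named for Gm19522. No peak of any name lay in 248 kb of its first part (centres at 42920215 and 43168621), against a median gap of 23.9 kb between the peaks in its body. A further 16 peaks in the gene were named for noncoding genes within or beside it, 10 for Gm15713, 3 for Gm19522 and 3 for Mir568. By position Zbtb20 therefore had 23 peaks, the most of the 7 genes, and 0.859% of coding genes had as many in their bodies. Per length it was the sparsest, with 3.03 peaks per 100 kb.

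Zbtb7a and Zbtb7b are short genes with many neighbours. Zbtb7a, on the plus strand of chromosome 10 (81135225 to 81152222), had all 5 of its peaks within 8.60 kb of the TSS, in 1 run of 9.94 kb. They were the promoter peak (81136037 to 81136535), a peak in a CpG island of intron 1 at 1.34 kb (81137360 to 81137858), and intergenic peaks 1.81, 6.95 and 8.60 kb upstream, the last of them the outermost (81127419 to 81127917). The next peaks on the 2 sides lay 21.6 kb away, at Map2k2, and 24.7 kb away, at Pias4. Counted under any name within 100 kb of the start, 30 peaks surrounded Zbtb7a, and 3.81% of coding genes had as many.

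Zbtb7b, on the minus strand of chromosome 3 (89377644 to 89393673), had 4 peaks in its body and a promoter peak centred just outside it (89393638 to 89394136), all named for Gm15417, a noncoding gene that overlaps its 5' end. Of the body peaks, 2 lay in intron 1 (89388215 to 89388713 and 89388904 to 89389402), 1 in exon 3 (89379714 to 89380212) and 1 in the 3' UTR (89378419 to 89378917). The 4 peaks in 16.0 kb came to 25.0 per 100 kb, the highest density of the 7 gene bodies. By count, 20.2% of coding genes had as many peaks in their bodies. Within 100 kb of its start 29 peaks of any name were found (4.54% of coding genes had as many). The corresponding numbers were 27 for Bcl11a, 15 for Bcl6, 9 for Zbtb16, 8 for Bcl11b and 6 for the inner start of Zbtb20, against a median of 12 (quartiles 5 and 19) over 17492 coding genes.

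**Figure D3:**
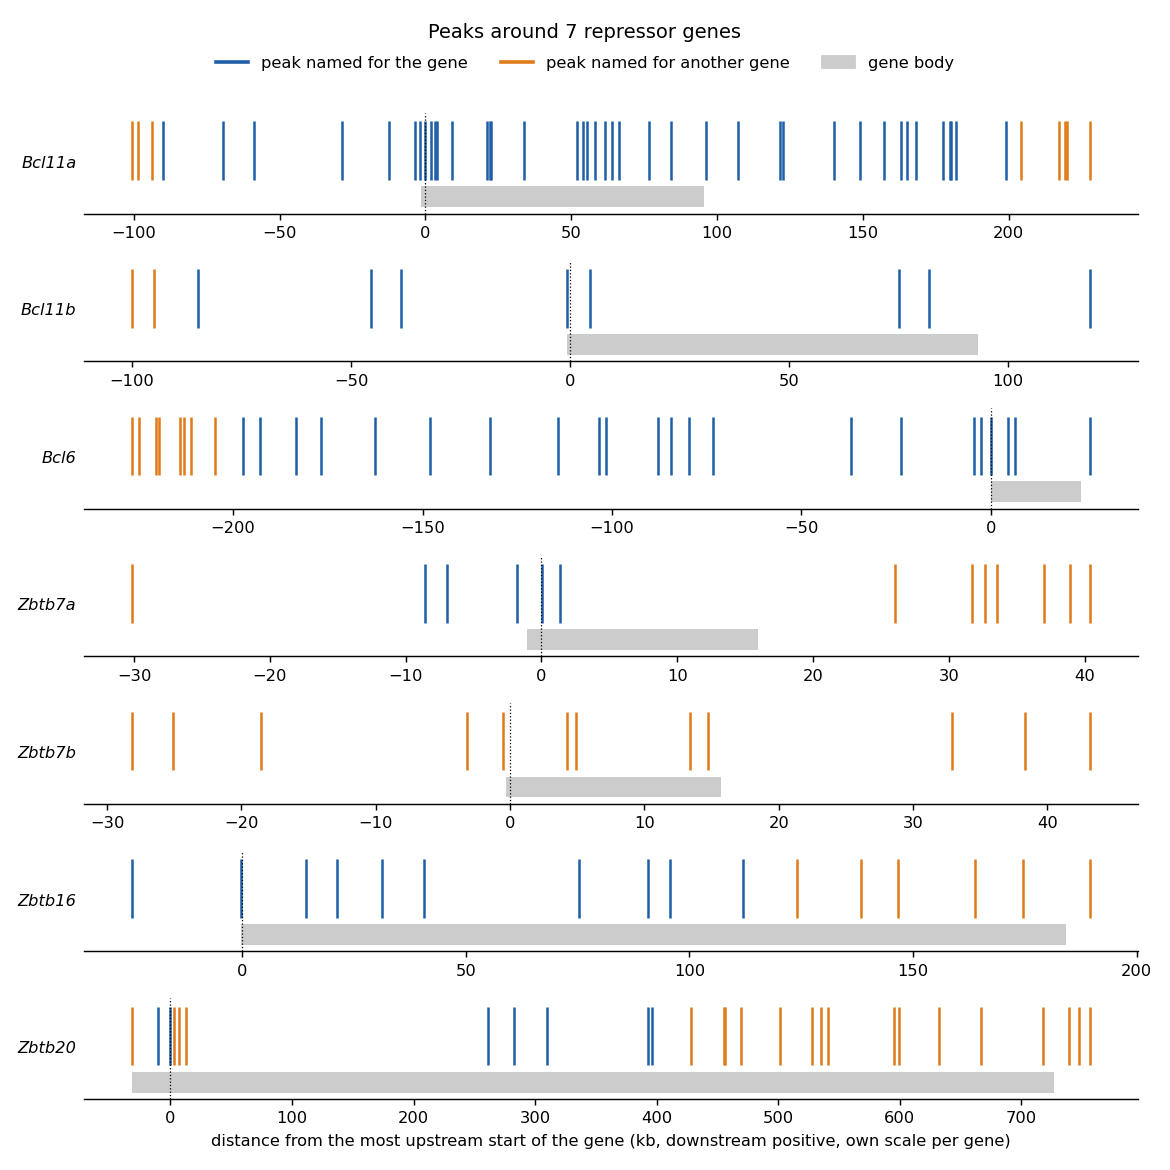
Peaks (vertical lines) along the 7 loci by distance from the most upstream start known from the list or the promoter table, in kb with downstream to the right and a scale of its own for each gene. Blue peaks carry the name of the gene, orange peaks another name, and grey bars are RefSeq gene bodies, which can begin before that start. Bcl11a peaks run through and past the gene to 199 kb, those of Bcl6 run upstream to 197 kb, and the peaks at Zbtb7b are all orange.

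Gene names therefore gave a partial picture of these loci. The bodies of the 7 genes held 68 peaks, of which 43 (63.2%) carried the name of the gene and 25 another name. Over the bodies of all coding genes 70.9% of the peaks carried the name of the gene they lay in. Every peak in the bodies of Bcl11a, Bcl11b, Bcl6 and Zbtb7a carried the gene's own name. Taking a peak by either name or position gave 117 peaks.

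**Figure D4:**
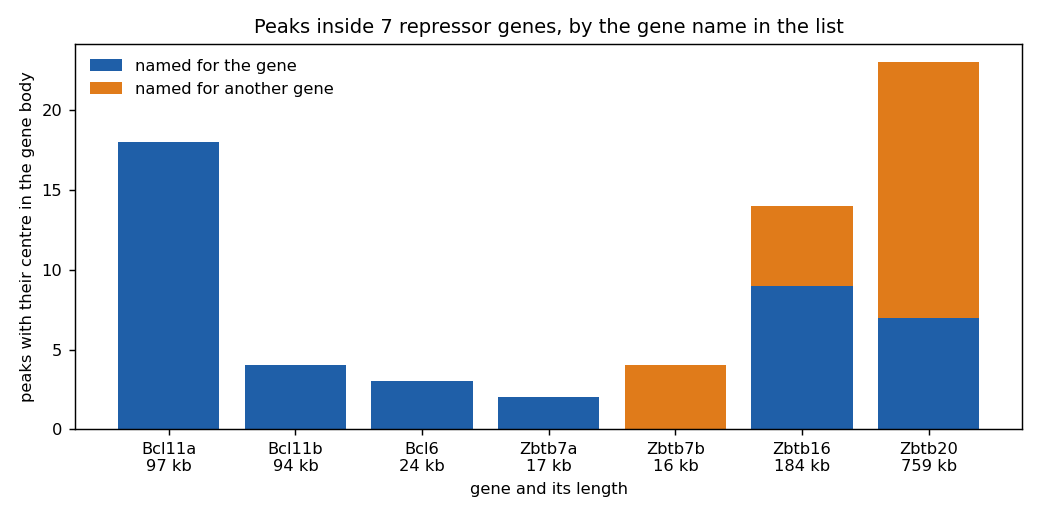
Peaks with their centre inside each gene, split by whether the list names that gene (blue) or another (orange), with gene length under each name. The 16 of 23 peaks in Zbtb20, 5 of 14 in Zbtb16 and 4 of 4 in Zbtb7b with another name stand out from Bcl11a, Bcl11b, Bcl6 and Zbtb7a, where there were none.

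The peaks of the members lay farther from a TSS than other peaks of the list, with a median distance of 57.8 kb, against 18.1 kb for the other 92750 peaks. Of the 92 peaks, 26 (28.3%, exact 95% interval 19.4 to 38.6, counting error only) lay more than 100 kb from a TSS, against 12.4% of other peaks. The same number lay 50 to 100 kb away, against 13.2%. Within 1 kb lay 8 peaks (8.70%, 3.83 to 16.4), against 16.2%. Peaks of 1 gene are not independent and the genes were chosen by name, so these shares were not tested. They differed among the members: 24 of the 26 peaks beyond 100 kb belonged to Bcl11a (14) and Bcl6 (10), while all peaks of Zbtb7a lay within 10 kb.

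By annotation, 48 of the 92 peaks were intergenic (52.2%, exact 95% interval 41.5 to 62.7), against 39.3% of other peaks, and 36 lay in introns (39.1%, 29.1 to 49.9), against 42.0%. Bcl11a (21) and Bcl6 (19) held 40 of the intergenic peaks. None of the 92 was annotated as exon, UTR or non-coding, for which a limit of 3 counts allows a share of up to 3.26%. The Zbtb20 peak at 42897108 to 42897606 lay in an intron of a noncoding transcript and was counted with the introns. Among other peaks, 2.67% were annotated as exons outside UTRs, 1.31% as 5' UTRs, 1.09% as 3' UTRs and 0.427% as non-coding. By position, 2 of the peaks in Zbtb7b lay in an exon or a UTR. Repeats held 9 peaks (9.78%, 4.57 to 17.8), 6 at Bcl11a and 3 at Bcl6, against 16.0% of other peaks. Of these, 4 were LTR elements, 2 LINEs, and 1 each a SINE, a DNA transposon and a simple repeat. In runs of at least 3 peaks with neighbouring centres at most 12.5 kb apart lay 62 peaks (67.4%, 56.8 to 76.8), against 64.6% of other peaks. The run share was near the background. Bcl11a had 34 of its 40 peaks in runs and Bcl11b 1 of 8.

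**Figure D5:**
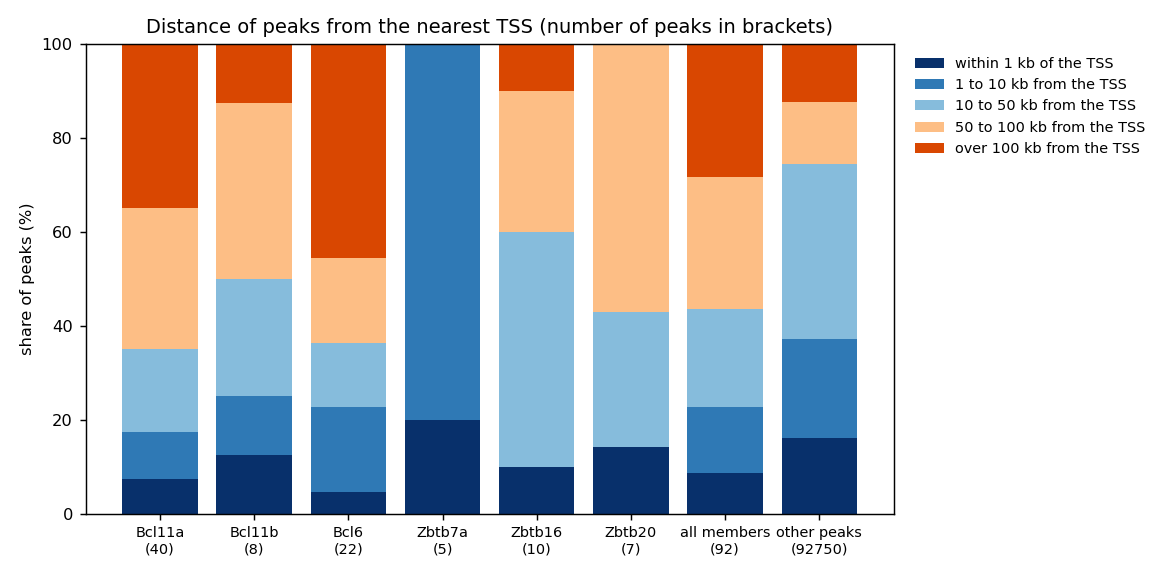
Share of peaks in 5 classes of distance from the nearest TSS, in percent, for each member with a peak, for all members and for all other peaks, with the number of peaks in brackets. Bcl6 and Bcl11a have the largest parts beyond 100 kb, and Zbtb7a has none beyond 10 kb.

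The members were next set beside their family and partners. The other 37 coding genes whose symbol begins with Zbtb had a median of 3 peaks (range 0 to 15), the same as all genes with a peak, and 2 of them had at least 10 peaks. They were led by Zbtb18 with 15, Zbtb2 with 12, Zbtb46, a gene of classical dendritic cells, with 9, Zbtb7c with 8, and Zbtb38, Zbtb8a and Zbtb9 with 6 each, and Zbtb37 was the only one without a peak. A peak within 1 kb of a TSS was found at 32 of the 37, against 68.0% of all genes named in the list. The group was taken by symbol and so includes Zbtb8os, which encodes no BTB protein.

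Among 13 subunits of NuRD, the complex that Bcl11 proteins recruit, the median was 3 peaks. Mbd2, a methyl-CpG binding subunit, had 27 and Mta3 16, and no subunit was without a peak. Among 8 corepressor genes, those of the SMRT and NCoR complexes with Bcor and Sin3a, which belong to other complexes, the median was 4.5. Tbl1xr1, an exchange factor of SMRT and NCoR, had 61 peaks and Bcor, a corepressor of Bcl6, 29, and each of the 8 genes had a peak. A peak was also found at 36 of the 37 other Zbtb genes, so having a peak does not set either list apart. Of 9 genes known to be repressed by one of the members, 3 had at least 10 peaks, against 12.6% of all genes named in the list. Prdm1, the plasma cell regulator that Bcl6 represses, had 35, Runx3, which Zbtb7b represses in CD4 cells, had 27, and the embryonic globin gene Hbb-bh1, silenced with the help of Bcl11a, was without a peak of its name. Hbb-y, the other embryonic globin gene of the list, had 4 peaks of its name, none of them within 1 kb of its TSS.

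The genes whose peaks were laid out most like those of a member were found from the number of peaks in 10 bins of signed distance, among the 2413 other genes with at least 10 peaks. The measure was the Bray-Curtis distance, which is 0 for equal profiles and 1 for profiles that share nothing. Bcl11a was most like Hivep2, a zinc finger gene with 35 peaks (distance 0.12). Bcl6 was most like Dab2 and Lef1, with 20 peaks each (0.143 for both). Zbtb16 was most like Abcg2 and Dyrk1a, with 11 each (0.0476 for both). Likeness here covers the number and position of peaks around the TSS in the merged list and nothing else.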

How the data were processed

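The data were the annotated master list of ATAC-seq peaks of 14 libraries (7 cell types, 2 each). The authors annotated the peaks with the annotatePeaks program against mm10, per the file header, with HOMER 4.10.2, per the submitters' processing notes. The aligner, peak caller, thresholds and merging were not given in the sources used here. In the deposited list every peak is 499 bp wide and its score is 0, so width and score carry no information, and depth is unknown. Positions are 1-based mm10. The TSS and strand of a member were recovered from peak centres and signed distances, which gave 1 position per transcript.

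Gene bodies and promoter windows came from RefSeq tables of GRCm38.p6, in which all 7 members were matched by symbol, 6 of them with a window. Counts, runs, motif matches and exact (Clopper-Pearson) intervals were computed with Python 3.11.15, pandas 2.3.3 and scipy 1.17.1. The runs, the counting of peaks in a gene body and the motif search were tested on simulated data, and the other steps were not. No test was run, since the list holds no values per library. The members, lists and motifs were chosen with earlier results of these data known. All members are named, with the 5 leading genes (and ties) of the other Zbtb genes and the 2 leading genes and those without a peak of each other list. Genes named besides these are neighbours of a member or were chosen with their values in view. The count around the RefSeq start, the promoter annotation under any name and the union of name and position were added after the data had been seen.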

Additional observations from a re-analysis of the deposited data

How the results depend on the processing

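Of 53 values under another setting, 28 moved, by over 1.5 times for a count or out of the exact interval for a share. Among the 31 of these on the main counts and shares, 11 moved, and the other moves were in counts for single genes or around a start. The 92 peaks of the members became 40 within 50 kb and 21 within 10 kb of a TSS, and 52 without Bcl11a. The median of 8 peaks per member became 5 within 50 kb, 2 within 10 kb and 4 by position in the gene body. For the other Zbtb genes the median was 3 within 50 kb and 2 within 10 kb. Over the bodies of all coding genes it was 1. The 3 members with at least 10 peaks became 1 within 50 kb, 0 within 10 kb, and 6 with a minimum of 5 peaks. The share of peaks over 1 kb downstream of a TSS was 52.2% and 34.6% without Bcl11a. Shares over few peaks have wide intervals, so some changed without leaving them: the share in repeats, 9.78%, was 4.77% as a mean over members and 5.77% without Bcl11a, and the share within 1 kb, 8.70%, was 5.43% within 500 bp. The 19 pairs of a motif and a member became 13 on the strand of the gene alone. The 62 peaks in runs became 36 with centres at most 5 kb apart. By position in the gene body, Zbtb20 had 23 peaks in place of 7, Zbtb7b 4 in place of 0, and Bcl6 3 in place of 22. No paired analysis was possible because the list holds no values per library, and for the same reason no library could be left out. A stricter peak threshold was not run, since every score is 0.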
